A study of Mus musculus with 6 samples.

Results

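Pi16 adventitial fibroblasts (FBs) are the FBs of the outer arterial wall that carry Pi16, a secreted peptidase inhibitor. They were chosen from single cell RNA sequencing of proximal pulmonary arteries (PAs) by measured values. Kept barcodes had at least 500 UMIs (unique molecular identifiers, each of which tags an RNA molecule), at least 300 genes and at most 20% mitochondrial UMIs. FBs among them had at least 4 UMIs of Pdgfra, Dpt, Clec3b, Col3a1 and Lum, and more than 2 times the UMIs of 7 genes of leukocytes, endothelium, muscle, mesothelium and airway. A Pi16 FB had more UMIs of the markers Pi16, Sema3c, Cd248 and Opcml than of the counter-markers Abca8a, Svep1, Ogn and Mmp3. This rule found 833 Pi16 FBs among 1777 FBs and 15622 kept cells. Of the remaining FBs, 836 had the higher counter-marker sum and 108 had equal sums, 66 of these with none of the 8 genes. At the edge of the rule, 76 Pi16 FBs led by a single UMI and 65 other FBs trailed by a single UMI. The median Pi16 FB held from 5 marker UMIs in the male of 24 months to 49 in the female of 28 months.

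The mice were C57BL/6J, with 1 library each and no genetic change or treatment named. Both young mice, a male and a female, were 3 months old. The old were aged 20, 24, 27 and 28 months, of which the 28-month mouse was female and the others male by the labels or the study's text. Values below are given in this order, the 2 young libraries before the 4 old ones, and the young male and the 20- and 24-month mice take their sex from that text. The remaining young male of the study was not analysed here. Main PAs were digested with collagenase and elastase, so the cells are those that this digestion released. The labels name no batch.

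Adventitial FBs make and turn over the collagen, microfibrils and proteoglycans of the outer vessel wall. Across mouse tissues, FBs with Pi16 and Dpp4 line the adventitia and are known as a progenitor-like state, from which more specialised FBs can be derived. They are also known for Cd34, Ly6a (the stem cell antigen Sca-1) and Cd248 (endosialin) at the surface.

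Depth differed widely between the libraries. Pi16 FBs numbered 79 and 20 in the young male and female, and 88, 68, 255 and 323 in the old libraries. Their UMIs summed to 87483 and 14941 in the young and to 296421, 70535, 1690891 and 2508744 in the old. The median Pi16 FB held 956 and 713 UMIs in the young, and 3209, 939, 6673 and 7891 in the old. The 24-month library was thus as shallow per cell as the young ones. The young pair and the 24-month library also shared cell barcodes with each other, from 131 to 215 per pair, where no other pair shared more than 4. Only 3 of the barcodes shared by these libraries were a Pi16 FB in either library and none was in both. The library of 20 months, male by the study's text, held 746 CPM (counts scaled to library size) of Xist in its Pi16 FBs beside 57.4 CPM of the Y-linked Ddx3y. By comparison, the female of 28 months held 880 CPM and 0 CPM of these genes and the male of 27 months 0.591 and 190 CPM. Free RNA of the 20-month library, from barcodes with 10 to 100 UMIs, held 2877 CPM of Ddx3y, where that of the other libraries held at most 45.2 CPM. This library is grouped by age only, and its sex entered no fit other than the alternative with sex as a covariate.

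Pi16 and Pdgfra are part of the rule, so their presence in the cells was fixed by it and is given as a description. A Pi16 UMI was seen in 79.8% (63 of 79) and 95% (19 of 20) of young and in 97.7%, 86.8%, 98.0% and 93.8% of old Pi16 FBs. In leukocytes of the same libraries, which should lack Pi16, the share was 0.68% (1 of 147 cells) in the young male and 3.12%, 1.47%, 7.91% and 9.18% in the old. Only 5 leukocytes were found in the young female, 1 of them with a Pi16 UMI. Median depth of the leukocytes, from 939.5 to 6634 UMIs, was near that of the Pi16 FBs. Of all Pi16 FBs, 53 had no Pi16 UMI and entered through Sema3c, Cd248 or Opcml. The FB gene Pdgfra, the platelet-derived growth factor receptor that marks FBs, stood at 354 and 134 CPM in young and at 250, 312, 331 and 289 CPM in old libraries. Outside the rule, Cd34, a surface glycoprotein of adventitial FBs, stood at 754 and 602 CPM in young and at 901, 1248, 1192 and 1113 CPM in old libraries. T cell markers were at 0 in every library. Leukocyte, macrophage, pericyte, Schwann cell and cartilage markers summed to less than in the free RNA of their own library in at least 5 of the 6 libraries.

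Mesothelial markers stood apart in the young. The 4 genes Msln, Upk3b, Lrrn4 and Krt19 summed to 754 CPM in Pi16 FBs of the young male and 201 CPM in those of the young female, against 13.5, 28.4, 12.4 and 51.4 CPM in the old. Free RNA of these libraries, taken from barcodes with 10 to 100 UMIs, held from 86.4 to 112 CPM. The most abundant of the 4 genes, Upk3b, was at 286 and 0 CPM in the young, and in the young female Krt19 made up the whole sum. In the young male, 15 of 79 Pi16 FBs, 9 of 18 other FBs and 30 of 37 FBs with equal sums carried a mesothelial UMI. Airway genes, led by Scgb1a1, summed to 149 and 937 CPM in young and to 47.2, 553, 141 and 33.9 CPM in old Pi16 FBs, against free RNA from 1503 to 15603 CPM. Gm10801, a gene model high in free RNA of the young male (121018 CPM), stood at 7190 and 3079 CPM in young and at 87.7, 1971, 1.77 and 43.9 CPM in old Pi16 FBs. The part of these transcripts in the differences between ages was not tested, except where values without the mesothelial cells are given.

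Pi16 FBs made up a larger share of FBs in young than in old PAs by the mean, with overlapping libraries. The share was 59.0% and 87.0% in the young and 62.0%, 42.8%, 51.3% and 39.3% in the old. The means were 73.0% ± 19.8 (SD, n = 2) and 48.8% ± 10.1 (SD, n = 4), with an exact two-sided permutation p = 0.267. The difference of -24.1 percentage points was -10.1 without the young female (23 FBs) and -38.1 without the young male. No p under 0.133 can be had from 2 against 4 libraries. The young male lay below the old library of 20 months, and 37 of its 134 FBs had equal sums. Among FBs whose sums differed, the shares were 81.4% and 90.9% in young and 68.8%, 49.3%, 52.6% and 40.4% in old, so that the groups did not overlap (exact permutation p = 0.133). Leaving out cells with a mesothelial UMI gave 80.0% and 85.7% against 61.8%, 43.7%, 50.6% and 37.9%. Thinning each cell to 500 UMIs gave 61.2% and 73.7% against 57.4%, 25.6%, 41.2% and 34.7% of the FBs that remained. These last 3 comparisons each reached the smallest p the design allows, and the first 2 were chosen after the data were seen. The groups also did not overlap at a sum of 0 for the 7 genes of other cell types (exact permutation p = 0.133). They overlapped, with an exact permutation p = 0.267 each, in cells with at least 1000 UMIs and 500 genes, with at most 10% mitochondrial UMIs, at a margin of 2 UMIs, with doublets removed and with Mmp3 left out of the rule.

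**Figure D1:**
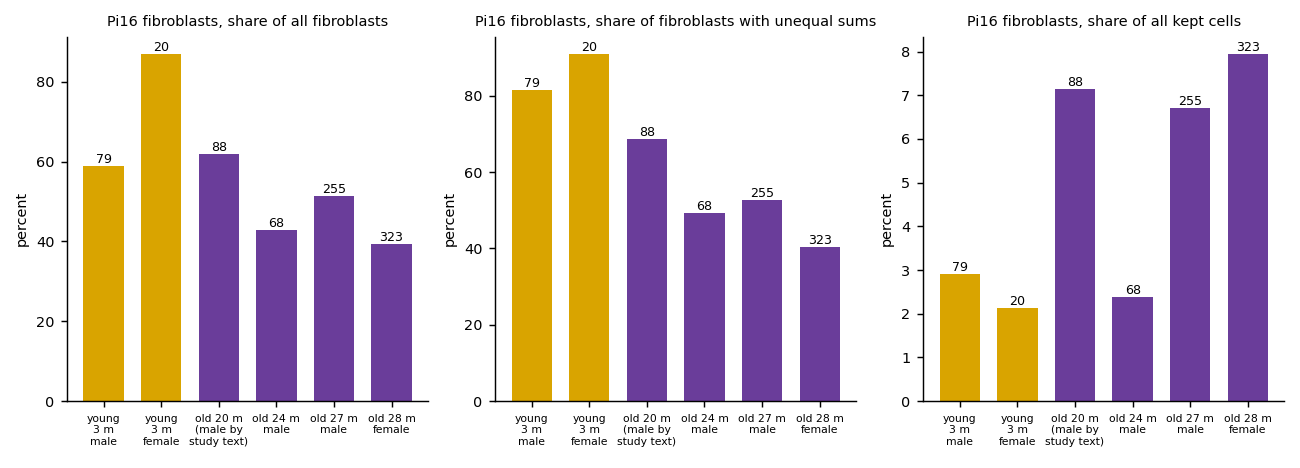
Share of Pi16 FBs in percent, per library, of all FBs (left), of FBs whose marker and counter-marker sums differed (middle) and of all kept cells (right). Yellow bars are young and purple bars old libraries, and the number on each bar is its count of Pi16 FBs. Young and old bars overlap on the left, with 59.0% in the young male and 62.0% in the old library of 20 months, and do not in the middle.

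Of all kept cells, Pi16 FBs made up 2.90% and 2.14% in young and 7.14%, 2.37%, 6.72% and 7.94% in old libraries. The young mean was 2.52% ± 0.540 (SD, n = 2), and the old mean 6.04% ± 2.499 (SD, n = 4), with p = 0.267 in the same exact test. After thinning each cell to 500 UMIs the means were 1.502% and 2.498%, so that the difference fell from 3.52 to 0.996 percentage points (exact permutation p = 0.4). The 24-month library lay between the 2 young ones. Against it alone, which shares barcodes with both young libraries, the difference from the young mean was -0.15 percentage points. In shares of FBs the same comparison gave -30.2 points.

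What else set Pi16 FBs apart is given as a description, since the cells were divided by measured values of the same libraries. The 5 libraries with at least 10 other FBs were used, since the young female held only 2. Of 9585 genes with at least 50 counts, 29 (0.303%) were over 2-fold higher in Pi16 FBs in every library and 11 (0.115%) over 2-fold lower, on the scale of CPM + 10. Igfbp5, which binds insulin-like growth factors in the matrix, led the higher genes. It stood at 8607, 11436, 8719, 13199 and 10825 CPM in Pi16 FBs of the young male and the old libraries, and at 3903, 810, 2154, 2058 and 1003 CPM in other FBs. At these levels it exceeded Pi16 itself, at 6241, 4578, 3204, 4702 and 2529 CPM, although the counts were not scaled to gene length and 3' counting was used. Igfbp3, a relative of Igfbp5, led the lower genes, at 0 to 34.3 CPM in Pi16 FBs and 81.6 to 319 CPM in other FBs.

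Igfbp5 was the first of 15 higher genes named by their ratio. Thy1, the FB surface glycoprotein CD90, was at 80.0 to 244 CPM in Pi16 FBs and at 0 to 50.4 CPM in other FBs. Efhd1, a calcium-binding protein of mitochondria, was at 137 to 291 CPM against 0 to 73.3 CPM. Dact2, an inhibitor within Wnt and TGF-beta signalling, was at 94.5 to 126 CPM against 0 to 17.6 CPM. Has2, which makes hyaluronan, was at 36.7 to 202 CPM against 0 to 132 CPM. Pla1a, a phospholipase, had a median ratio of 4.13, as had Basp1, a membrane-bound signalling protein, and Ecscr. The guidance ligand Sema3e (median ratio 5.39), Cmah (4.54), Chst1 (4.37), Stmn4 (4.04), Pdgfc (3.84), Car8 (3.80) and the unnamed model Gm15675 (5.58) completed the 15 genes. Pdgfc is a ligand of the receptor Pdgfra.

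Another 15 genes, named by the same ratio and with Igfbp3 first, were lower in Pi16 FBs. Apoe, which carries lipids, was at 480, 678, 156, 366 and 427 CPM against 1745, 4137, 469, 1836 and 2586 CPM in other FBs. Gpx3, a secreted antioxidant enzyme, was at 128 to 297 CPM against 249 to 1236 CPM. Fgl2, a fibrinogen-like protein, was at 0 to 37.1 CPM against 63.5 to 329 CPM. Hsd11b1, which activates glucocorticoids (median ratio 0.292), Steap4 (0.215), Piezo2, a mechanically gated channel (0.232), the chemokine Cxcl14 (0.240), Bmper, a regulator of BMP ligands (0.252), Cadm1 (0.266), Col6a6 (0.266), Ccbe1 (0.283), Abcc9 (0.292), Tmem176b (0.190) and Tmem176a (0.272) were lower in every library.

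**Figure D2:**
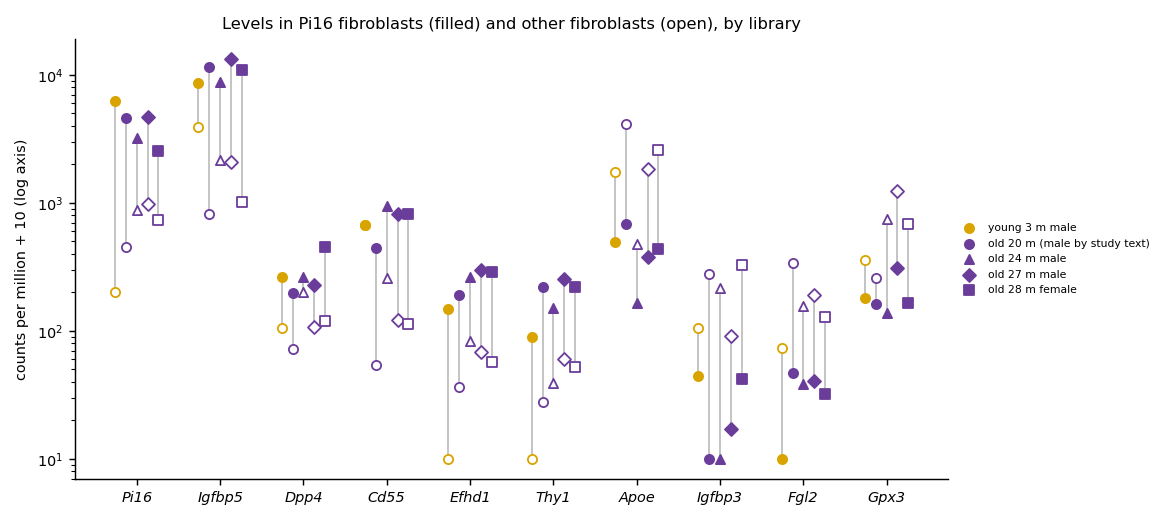
Levels of 10 genes as CPM + 10 on a log axis in Pi16 FBs (filled) and other FBs (open) of the 5 libraries with at least 10 cells of both, each grey line joining the values of a single library. Pi16 and Igfbp5 lie higher in Pi16 FBs in every library, and Apoe, Igfbp3, Fgl2 and Gpx3 lower. Cd55 lies at 663 and 666 CPM in the young male.

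Of the list of 30 adventitial progenitor genes, 25 outside the rule had enough counts, and 19 of them were higher in Pi16 FBs in every library, with a median log2 ratio of 1.08. Over all 9585 genes, 556 were higher and 545 lower in every library, with a median of 0. The gene lists were chosen with earlier results of these data known, so these counts are a description and no independent evidence. Dpp4, a surface peptidase, was at 252, 189, 255, 218 and 438 CPM against 95.2, 62.3, 190, 97.6 and 108 CPM. Fbn1, the main protein of microfibrils, was at 880, 1181, 2212, 2305 and 3303 CPM against 222, 169, 996, 677 and 970 CPM. Anxa3, Creb5, Limch1, Aldh1a3, Axl, Cd34 and Ly6a were also higher in each of the 5 libraries. Cd55, which protects cells from complement, was higher in the old libraries but not in the young male. Of the list named for the Abca8a and Svep1 FBs, 18 genes outside the rule had enough counts, of which 7 were lower in Pi16 FBs in every library and 1, Itih5, was higher in every library, with a median log2 ratio of -1.18. The collagen list, which also holds processing and cross-linking genes such as Pcolce2, Plod2 and Loxl1, was split. Of its genes, 4 of 27 were higher and 4 of 27 lower in every library. Of 28 respiratory chain genes, 0 were higher and 0 lower in every library.

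Pi16 FBs also varied among themselves. In the 2 libraries with at least 100 of them (the 27- and 28-month libraries, 255 and 323 cells), variance above counting error was ranked over 5678 genes. The rank was not adjusted for the mean level of a gene, so abundant genes can rank high by their level. Gsn and Malat1, next after Igfbp5, stood at 17646 and 12695 CPM and at 13546 and 15164 CPM. Igfbp5 ranked highest, with 40.0% and 45.7% of its UMIs in the 26 and 33 cells that held most of it. Such shares are of raw UMIs, with depth not divided out. For Mgp, the matrix Gla protein that restrains calcification, as many cells held 64.6% and 65.4%, and 82.4% and 71.2% of cells had a UMI. Apoe was seen in 45.1% and 55.1% of cells. The actin regulator Gsn, the nuclear RNA Malat1, the ribosomal RNAs Rn18s and mt-Rnr2, Pi16, Fbn1, Sntg1, the transcription factor Ebf1, Crip1, Nkain2, Abi1 and the proteoglycan Dcn completed the 15. Over the cells of each library, which share a source and in which depth was divided out, Igfbp5 went with Pi16 (r = 0.47 and 0.38) and with Fbn1 (0.29 and 0.52), and against Apoe (-0.25 and -0.30). Gsn went against Fbn1 (-0.40 and -0.35), and Mgp against Ebf1 (-0.37 and -0.36). Pi16 is one of the genes that chose the cells, and the part of this in its relation to Igfbp5 was not tested. The 2 ribosomal RNAs went together (r = 0.49 and 0.61).

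Between ages, no gene of Pi16 FBs passed the test. UMIs were summed per library and compared with edgeR over 7162 genes, each detected in over 5% of the cells of 3 or more libraries, and 0 (0%) had an adjusted p under 0.05, the smallest being 0.131. DESeq2 called 0 genes as well. At an unadjusted p under 0.05, edgeR gave 549 genes and DESeq2 224. With a fold change over 2 as well, 393 genes (5.49%) were higher and 154 (2.15%) lower in old. The excess of higher genes rested on the fit, since DESeq2 gave 113 higher and 109 lower and edgeR with sharing of barcodes as a term 188 and 179. The lowest old library was above the higher young one in 1147 genes (16%), and the highest old library below the lower young one in 543 (7.58%). The median log2 fold change of all genes was 0.28 and 63.1% of genes were higher in old, against 0.06 and 51.8% once sharing of barcodes was a term in the fit. Of the tested genes, 359 had no count in the young and passed the filter through old libraries only. With these at their bound against 3 counts, the median of all genes was 0.20. Directions below are to be read against this background, and none of the genes named in them passed an adjusted p of 0.05.

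The rule genes came first. Pi16 was at 6241 and 5555 CPM in young and at 4578, 3204, 4702 and 2529 CPM in old Pi16 FBs, so that each old library lay below both young ones. The fitted log2 fold change was -0.44 (SE 0.45, edgeR adjusted p = 0.874). Since Pi16 is part of the rule, its level depends on which cells entered. Opcml, a cell adhesion molecule, was at 800 and 468 CPM in young and at 567, 1233, 1700 and 1820 CPM in old (log2 fold change 1.12, SE 0.54, adjusted p = 0.641). Sema3c (0.34, SE 0.47) and Cd248 (0.32, SE 0.47) differed by less than their errors. Among the counter-markers, which the rule keeps low in these cells, Mmp3 was at 11.4 and 0 CPM in young and at 111, 70.9, 137 and 211 CPM in old. Mmp3, the protease stromelysin-1, had a single young count. Its ratio of counts per UMI, both pooled over the libraries of an age, was 17.9, with a 95% counting interval from 3.21 to 710. Pooling weights the deeper libraries more.

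Higher in old by the smallest p was Nkain2, a membrane protein that binds the sodium pump. It was at 57.2 and 66.9 CPM in young, on 6 counts, and at 236, 255, 486 and 873 CPM in old (log2 fold change 3.05, SE 0.72, edgeR adjusted p = 0.232). All 4 old libraries lay above both young ones, and the 2 deepest were highest. Cxcl12, the chemokine that guides leukocytes and progenitors, was at 34.3 and 0 CPM in young and at 125, 213, 196 and 165 CPM in old. With 3 young counts, its ratio of counts per UMI, both pooled over the libraries of an age, was 5.95 (95% counting interval 2.03 to 28.9). Rp9, linked to splicing, was at 0 CPM in both young libraries and at 105, 56.7, 117 and 124 CPM in old. Set against 3 counts over the young group, its ratio was 4.07, with a lower 95% counting limit of 3.30. Against 3 counts as well, Pdlim4, a protein of the actin cytoskeleton, had a ratio of 3.36 and Fam20a of 2.70. Arntl (the clock gene Bmal1), Fads1 (a fatty acid desaturase), Rab11fip5 and Jkamp had ratios of 2.60, 2.59, 2.52 and 2.36. Lower limits of these others ran from 1.91 (Jkamp) to 2.72 (Pdlim4). All the genes with no young count passed the filter through old libraries only and were chosen for libraries that did not overlap. Their ratios are thus a description and no separate evidence.

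Lower in old by the smallest p was Krt19, an epithelial keratin. It was at 91.5 and 201 CPM in young and at 10.1, 0, 7.69 and 13.1 CPM in old (log2 fold change -3.42, SE 0.70, edgeR adjusted p = 0.131). Krt19 is itself one of the 4 mesothelial genes summed above, so that sum is no separate evidence of where its counts came from, and the part of mesothelial RNA in its difference was not tested. Cebpb, a transcription factor of inflammation and fat cell formation, was the most abundant of these genes. It was at 1349 and 1004 CPM in young and at 263, 496, 218 and 126 CPM in old (log2 fold change -1.98, SE 0.51, adjusted p = 0.290). Egr3, an immediate early factor, was at 103 and 134 CPM in young and at 23.6, 28.4, 15.97 and 9.17 CPM in old (-2.83, SE 0.68). Sema5a, a guidance molecule, was at 194 and 201 CPM in young and at 13.5, 70.9, 42.0 and 30.7 CPM in old (-2.42, SE 0.59). Ap4e1, a subunit of a sorting adaptor, had a mean of 233 CPM in young and 41.9 CPM in old (-2.65, SE 0.54, adjusted p = 0.131). The mRNA export factor Alyref (-2.27, SE 0.55), the transcription factor Sox6 (-2.67, SE 0.64), the scaffold Slc9a3r1 (-2.84, SE 0.73), the ubiquitin ligase part Fbxo33 (-2.28, SE 0.60) and the class II antigen H2-Eb1 (-2.51, SE 0.65) made up the rest. Counts in the young were 133 for Cebpb, 31 for Ap4e1, and from 18 to 25 for Sema5a, Sox6, Alyref and Fbxo33. They were 11 for Krt19, 11 for Egr3 and 9 for Slc9a3r1. The young female gave 14941 UMIs in all, so apart from Cebpb its values for these genes rest on a few UMIs each. H2-Eb1, a gene of antigen-presenting cells, was at 137 and 66.9 CPM in young (13 counts) and at 6.75, 0, 21.3 and 29.1 CPM in old. Leukocyte markers in the same cells summed to 45.7 and 0 CPM in young and 13.5, 56.7, 10.05 and 35.5 CPM in old. B cell markers summed to 80.0 and 66.9 CPM in young and 0, 70.9, 2.96 and 49.8 CPM in old. Macrophage markers summed to 34.3 and 0 CPM in young and 10.1, 42.5, 63.3 and 227 CPM in old, and the part of such cells in the difference was not tested.

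**Figure D3:**
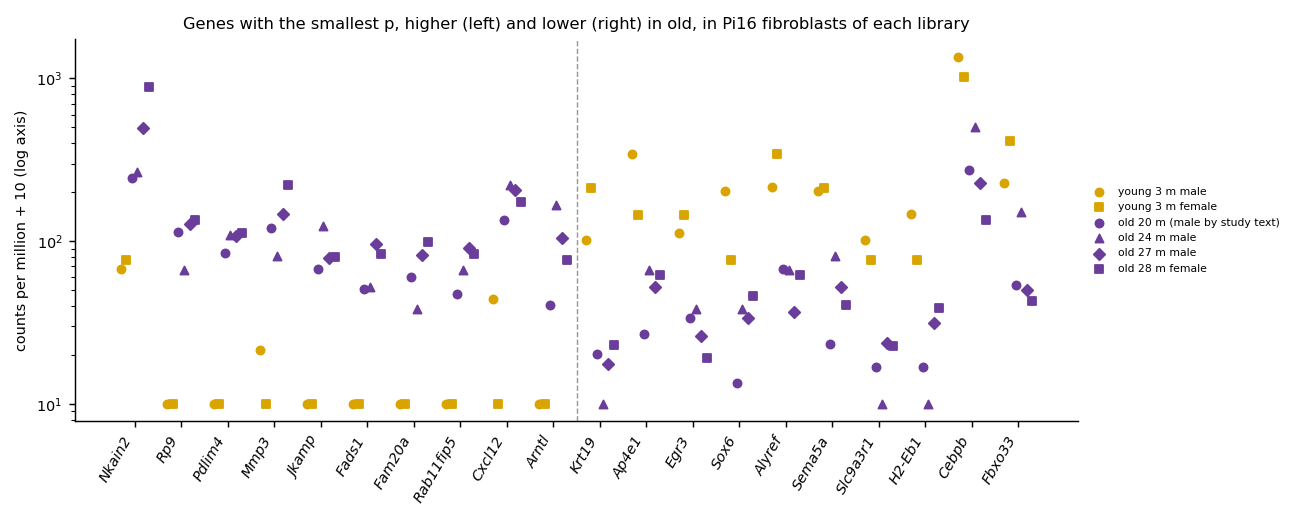
Levels of the 20 genes above as CPM + 10 on a log axis in Pi16 FBs of each library, 10 with higher (left of the dashed line) and 10 with lower values in old (right). Yellow marks are young and purple marks old libraries. Marks at 10 stand for a level of 0, which holds for both young libraries in 7 of the 10 genes on the left.

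The lists below are described by their counts and medians, and these moved with the libraries and cells that entered. All were chosen with earlier results of these data known. The relative median of a list is its median less that of all genes, and its range over the 20 alternatives is given with the number that kept its sign. Among these alternatives, the minimum of 5 cells left the fit unchanged, so its sign was fixed in advance. Removal of doublets changed few cells. The alternatives share most of their cells, so the number that kept the sign is no count of independent checks. Rule genes are counted in the lists that hold them. Col3a1 is in the collagen list, Lum and Ogn among proteoglycans, Mmp3 and Pi16 among proteases and inhibitors, and Mmp3 among senescence genes. The progenitor list has 30 genes, or 26 without markers and counter-markers, and that of the Abca8a and Svep1 FBs has 23, or 19 without them. Without the young male, which leaves 20 young cells, the median of all genes was 1.36, and list medians without it are to be read against that value.

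Immediate early genes, which cells switch on within minutes of a stimulus or of dissociation, were lower in old as a list by the count, and none passed the test. Of 19 tested, 13 were lower and 6 higher, with a median log2 fold change of -0.37 beside 0.28 for all genes. Their summed level was 19089 and 19410 CPM in young and 14186, 16020, 11878 and 4767 CPM in old. The old libraries all lay below the young, and the female of 28 months was lowest by far. Fos was at 3143 and 3480 CPM in young and at 1653, 3062, 1041 and 204 CPM in old (log2 fold change -0.88, SE 0.96, edgeR adjusted p = 0.898). Cebpb, Fosb, Nr4a1 and Dusp1 likewise lay below both young libraries in every old one. Egr1, Junb and Klf4 overlapped between ages. The relative median, -0.64, ran from -1.25 to -0.21 and kept its sign in 20 of 20 alternatives. With sex as a covariate the list's median was -0.97, 4 of 19 were higher, and Cebpb, Fosb and Nr4a1 passed (edgeR adjusted p = 0.0114, 0.0162 and 0.0338), in a fit that took the 20-month library as male. Cebpb, whose values are given above, also passed without TMM scaling (adjusted p = 0.0458). Without the library of 20 months the median was -0.75 and without the young female -0.63. Without the 28-month library it was -0.08, and without the young male 0.16, where the median of all genes was 1.36.

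**Figure D4:**
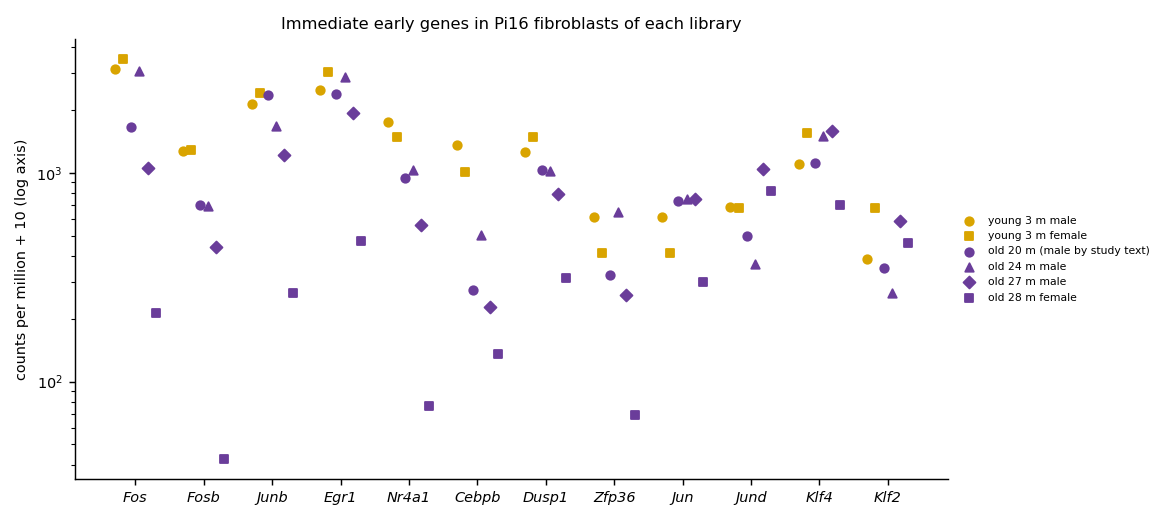
Levels of 12 immediate early genes as CPM + 10 on a log axis in Pi16 FBs of each library, yellow for young and purple for old. The old female of 28 months (purple squares) is lowest for most genes, at 204 CPM for Fos and 32.7 CPM for Fosb. Egr1, Junb, Zfp36, Jun, Jund, Klf4 and Klf2 overlap between ages.

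Of 29 progenitor genes tested, none passed, 24 were higher and 5 lower in old, with a median log2 fold change of 0.43, and 21 of the 25 outside the rule were higher. Among FBs with no UMI of the 7 genes of other cell types, 17 of the 29 were higher and the median was 0.23, as in all genes. That fit had no young female, which held 9 such Pi16 FBs. After thinning to 500 UMIs, 16 of 25 were higher (median 0.18 beside 0.13 for all genes), and without the young female the median was 0.22 beside 0.13. The relative median ran from -0.62 to 0.56 and kept its sign in 16 of 20. Ly6a was at 1280 and 1941 CPM in young and at 2122, 2056, 1698 and 1791 CPM in old (0.55, SE 0.46). Igfbp6, which binds insulin-like growth factor II, overlapped between ages (-0.24, SE 0.49). Fbn1 was at 880 and 1941 CPM in young and at 1181, 2212, 2305 and 3303 CPM in old (1.02, SE 0.49, edgeR adjusted p = 0.648). Of the genes of the Abca8a and Svep1 FBs, 13 outside the rule were tested and 10 were higher (median 0.85). With the 4 counter-markers, whose levels the rule sets, the relative median ran from -0.06 to 0.96 and kept its sign in 19 of 20. Ogn, a small proteoglycan and counter-marker, and Itih5, which stabilises hyaluronan, lay above both young libraries in every old one, at log2 fold changes of 0.89 (SE 0.48) and 1.14 (SE 0.57). Fmo2 (1.02, SE 0.76) and Abca8a (0.29, SE 0.49) overlapped.

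Of 26 tested genes of the collagen list, with its processing and cross-linking genes, 15 were higher and 11 lower in old (median 0.16). The list's median was below 0 without TMM scaling of library sizes (-0.09), after thinning (-0.11), with sharing of barcodes as a term (-0.01) and without the 28-month library (-0.01). Relative to all genes, it ran from -0.89 to 0.21 and kept its sign in 17 of 20. Col1a1 (-0.30, SE 0.47), Col1a2 (0.14, SE 0.45), Col3a1 (-0.53, SE 0.47) and Col14a1 (0.62, SE 0.47) each differed by little more than their error or less. Of 13 genes of proteoglycans and glycoproteins, 12 were higher (median 0.56). The median was 0.33 without TMM scaling, and in FBs with no UMI of other cell types 9 of 12 were higher with a median of 0.23, as in all genes. The list's relative median ran from -0.50 to 0.72 and kept its sign in 17 of 20. Dcn, decorin, which binds collagen fibrils, was at 3589 and 6425 CPM in young and at 5860, 6975, 9526 and 8058 CPM in old (0.91, SE 0.45, edgeR adjusted p = 0.648). Fn1 (0.42, SE 0.47), Tnxb (0.43, SE 0.47) and Sparc (0.08, SE 0.46) overlapped. Of 17 elastic fiber genes, 11 were higher (median 0.32). The median was -0.09 after thinning, -0.11 in FBs with no UMI of other cell types and -0.18 with sharing of barcodes as a term, and the relative median ran from -0.94 to 0.22 and kept its sign in 8 of 20. Among these genes were Fbln2 (0.52, SE 0.48) and Mfap5 (0.32, SE 0.45), while Ltbp4 lay lower in every old library (-0.25, SE 0.46). Of 23 proteases and inhibitors, 15 were higher (median 0.34, or 0.32 with the gene absent in young at its bound), including the inhibitors Timp2 (0.34, SE 0.45) and Timp3 (0.84, SE 0.48). Without the young female the median was 0.07, and without the 20-month library 0.18. The relative median ran from -0.63 to 0.41 and kept its sign in 12 of 20. Serping1, which inhibits complement C1, lay above both young libraries in every old one (0.57, SE 0.47).

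Of the 9 matrix turnover genes that the study's text names for FBs and smooth muscle cells together, 8 were tested and 7 were higher in old, with a median of 1.92. The study drew this list from these samples, so its direction is not independent evidence. The size of the median rested on single libraries, since without the library of 20, 27 or 28 months only 5 of the genes could be tested, with medians of 0.87, 0.74 and 0.72, and without the young male it was 1.27. It was 0.85 for the 3 genes tested after thinning and 5.12 in FBs with no UMI of other cell types. Relative to all genes, it ran from -0.10 to 4.89 and kept its sign in 19 of 20. Bmp6, a bone morphogenetic protein, was at 0 and 66.9 CPM in young and at 64.1, 70.9, 120 and 175 CPM in old (3.46, SE 1.12, edgeR adjusted p = 0.556). Smad3, which carries TGF-beta signals to the nucleus, was at 11.4 and 0 CPM in young and at 37.1, 42.5, 120 and 120 CPM in old (3.19, SE 1.13). Adamts12, a secreted protease, was at 22.9 and 0 CPM in young and at 81.0, 70.9, 88.1 and 156 CPM in old (2.48, SE 0.90). Smad6 was at 22.9 and 0 CPM in young and from 39.9 to 108 CPM in old. Smad4 (0.43, SE 0.63), Ntn4 (0.73, SE 0.59) and Col8a1 (2.11, SE 1.00) overlapped, and the Wnt receptor Fzd4 lay lower in every old library (-0.63, SE 0.61). Fgf1 was not tested, at 80.0 and 66.9 CPM in young and at 6.75, 0, 10.1 and 25.9 CPM in old.

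Of 15 genes of the senescence signature SenMayo that the study's text names for FBs, 13 were tested and 10 were higher (median 0.72), a list chosen on these samples as well. The median was 0.42 over 9 genes without the 28-month library, 0.30 over 7 genes after thinning and 0.23 over 11 genes in FBs with no UMI of other cell types, as in all genes. The list's relative median ran from -0.16 to 0.76 and kept its sign in 18 of 20. Csf1, the macrophage growth factor, was at 114 and 0 CPM in young and at 165, 227, 171.5 and 246 CPM in old (1.27, SE 0.65). Cd9 was at 286 and 268 CPM in young and at 503, 567, 352 and 397 CPM in old (0.86, SE 0.52). Il6st, the shared receptor of the interleukin-6 family, overlapped (1.44, SE 0.65), as did Axl (0.34, SE 0.47). Of 11 cell cycle inhibitors and p53 targets, 8 were higher (median 0.55, or 0.28 with the gene absent in young at its bound). The direction turned with sharing of barcodes as a term, where 4 of the 11 were higher and the median was -0.84, and the median was 0.29 without the young female and 0.32 without the 20-month library. The relative median ran from -0.89 to 1.32 and kept its sign in 17 of 20. Cdkn1a, which encodes p21, was at 183 and 66.9 CPM in young and at 489, 241, 264 and 153 CPM in old (1.07, SE 0.63, edgeR adjusted p = 0.715). Cdkn1b (-1.24, SE 0.69) lay lower in every old library, while Cdkn1c (0.97, SE 0.74) and Btg2 (-0.28, SE 0.99) overlapped.

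Of 22 TGF-beta and BMP genes, 14 were higher (median 0.27 beside 0.28 for all genes, and -0.10 in FBs with no UMI of other cell types, with a relative median from -0.63 to 0.37 that kept its sign in 14 of 20), with Tgfbr3 at -0.04 (SE 0.47), Fstl1 at 0.39 (SE 0.45), Id3 at 0.10 (SE 0.68) and Nbl1, a BMP antagonist, lower in every old library (-0.29, SE 0.47). Of 14 Wnt genes, 7 were higher and 7 lower (median -0.28). The median was above 0 in cells with at least 1000 UMIs and 500 genes (0.18), for the 4 genes tested after thinning (0.39) and without the young male (0.07). Relative to all genes, it ran from -1.32 to 0.27 and kept its sign in 19 of 20. Wnt5a was at 137 and 201 CPM in young and from 56.7 to 125 CPM in old (-0.59, SE 0.56), while Lrp1 (0.02, SE 0.46), Lrp6 (0.36, SE 0.59) and Sfrp4 (0.49, SE 0.70) overlapped. Of 8 genes of insulin-like growth factors, 4 were higher and 4 lower (median 0.15, but -0.04 without TMM scaling, -0.19 with sharing of barcodes as a term and -0.07 without the young female), and the relative median ran from -0.79 to 0.06 and kept its sign in 18 of 20. Igfbp5 overlapped between ages, at 8607 and 10106 CPM in young and 11436, 8719, 13199 and 10825 CPM in old (0.49, SE 0.44), as did Igfbp4 (0.36, SE 0.46) and Igfbp7 (-0.07, SE 0.47). Of 12 regional transcription factors, 8 were higher (median 0.91, or 0.54 with the gene absent in young at its bound). The median was near that of all genes with filterByExpr, edgeR's own gene filter (0.15 beside 0.16), in cells with at least 1000 UMIs and 500 genes (0.21 beside 0.26) and in FBs with no UMI of other cell types (0.29 beside 0.23). It was from 0.55 to 0.60 without the young female or the library of 20 or 28 months, and the relative median ran from -0.34 to 0.86 and kept its sign in 17 of 20. Foxp1 (1.07, SE 0.54) and Gata6 (1.04, SE 0.70) lay above both young libraries in every old one, and Prrx1 (0.82, SE 0.57) and Osr1 (-0.29, SE 0.54) overlapped.

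The list of chemokines and cytokines also holds receptors such as Il1r1 and Il6st and growth factors such as Vegfa. Of its 18 tested genes, 13 were higher (median 0.56, or 0.13 without the young female). Its relative median ran from -0.11 to 0.86 and kept its sign in 18 of 20. The neutrophil chemokine Cxcl1 was at 823 and 468 CPM in young and at 712, 1474, 46.1 and 5.58 CPM in old (-0.13, SE 2.23). Il6 was at 354 and 134 CPM in young and at 189, 893, 125 and 1.20 CPM in old (0.12, SE 2.30). Both were highest in the 24-month library and lowest in the female of 28 months. Cxcl13, a B cell chemokine, was at 1886 CPM in the young male alone and at 0 to 184 CPM elsewhere. Il33, an alarmin of adventitial FBs, overlapped (0.36, SE 0.53). Of 8 complement genes, 6 were higher (median 0.34). Without the young female 3 of 8 were higher (median -0.13), and in FBs with no UMI of other cell types 3 of 7 (-0.23), and the relative median ran from -0.47 to 0.61 and kept its sign in 13 of 20. Among them was C3, at 4698 and 2008 CPM in young and 2216, 2779, 2757 and 3499 CPM in old. Of 21 interferon-stimulated genes, 14 were higher (median 0.18, or 0.15 with 2 genes absent in young at their bounds). The median was -0.19 without the young female, -0.30 over 11 genes without the 20-month library and -0.56 in cells with at least 1000 UMIs and 500 genes, and the relative median ran from -0.82 to 2.36 and kept its sign in 11 of 20. Ifitm3, B2m, H2-K1 and H2-D1 overlapped. Of 8 myofibroblast genes, 6 were higher (median 0.55). Without the library of 20, 27 or 28 months, 4, 5 and 4 of them could be tested, with medians of 0.08, 0.14 and -0.01, and the single gene tested after thinning was lower (-1.94). The list's relative median ran from -2.06 to 0.57 and kept its sign in 13 of 20. Col12a1, a collagen of stressed tissue, lay lower in every old library (-1.17, SE 0.52). Acta2, which encodes smooth muscle actin, was at 11.4 and 0 CPM in young and at 16.9, 14.2, 229 and 37.9 CPM in old. Acta2 is one of the 5 smooth muscle markers, whose sum with it was 400 CPM in the 27-month library.

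Metabolic lists leaned lower relative to all genes. Of 28 respiratory chain genes, 17 were lower and 11 higher (median -0.16). Their summed level was 7876 and 7028 CPM in young and 7341, 5713, 4961 and 4826 CPM in old. Atp5l, a subunit of ATP synthase, was at 217 and 468 CPM in young and at 84.3, 113, 36.7 and 22.7 CPM in old (-2.28, SE 0.64, edgeR adjusted p = 0.472). Cox8a (-0.65, SE 0.46) and Ndufa4 (-0.77, SE 0.47) also lay below both young libraries in every old one, while Cox6c (-0.32, SE 0.51) and Atp5e (-0.12, SE 0.51) overlapped. Without the cells that carried a mesothelial UMI, 17 of 27 were higher and the list's median was 0.16 beside 0.36 for all genes, and without the young male it was 0.44 beside 1.36. The median was also above 0 at a margin of 2 UMIs (0.05) and without a gene filter (0.11), both below that of all genes (0.31 and 1.17), and it was -0.48 without the young female. The relative median ran from -1.06 to -0.15 and kept its sign in 20 of 20. Of 14 retinoid and lipid genes, 8 were lower (median -0.20). The median was 0.13 without the cells that carried a mesothelial UMI, 0.24 without a gene filter, 0.04 without the 27-month library and 2.01 without the young male. It was -0.56 over 7 genes after thinning and -1.12 with sharing of barcodes as a term, where 2 of 14 were higher. Relative to all genes, it ran from -1.17 to 0.65 and kept its sign in 19 of 20. Rarres2, which encodes chemerin, was at 1589 and 736 CPM in young and at 654, 440, 595.5 and 543 CPM in old (-0.98, SE 0.48). Aldh1a3 (0.07, SE 0.53) and Apoe (0.42, SE 0.69) overlapped.

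**Figure D5:**
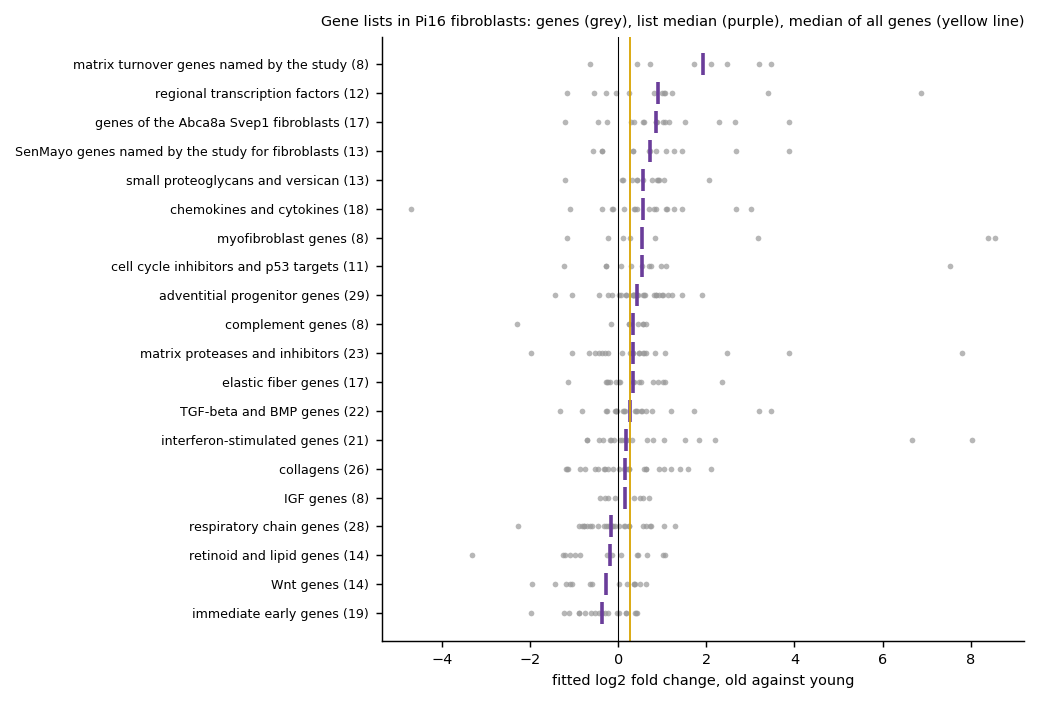
Fitted log2 fold changes of old against young for the tested genes of 20 lists in Pi16 FBs (grey points, number of genes in brackets), with each list's median (purple bar), 0 (black line) and the median of all genes, 0.28 (yellow line). Points above 6 are genes with no young count, whose fitted value is no bound. Matrix turnover genes have the highest median, 1.92, which was from 0.72 to 0.87 over 5 genes without the library of 20, 27 or 28 months, and immediate early genes the lowest, -0.37, which was 0.16 without the young male.

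The age difference of Pi16 FBs was set against that of other FBs as an interaction, with library as a block. Only 5 libraries could enter, with the young male as the single young library and 18 other FBs (31518 UMIs), 9 with a mesothelial UMI, behind it. The fit assumes that this library varies like the old ones, and what belongs to it cannot be told apart from age. Of 8210 genes, edgeR called 15 (0.183%), 2 with a higher and 13 with a lower change in Pi16 FBs. Without the male of 27 months or the female of 28 months it called 0, with 330 and 352 at an unadjusted p under 0.05, and without the library of 20 months 50. The values are therefore given as a description of these libraries. In the other FBs of the young male, 8 of the 15 had fewer than 10 counts. Of these, Ccn2, Ly6c1, Cul4b and Opcml had no count there, Col14a1 had 1 and Ebf1 had 3. Cd55 was at 663 CPM in Pi16 FBs of the young male and 435, 936, 807 and 804 CPM in those of the old, and at 666 and then 44.5, 249, 112 and 104 CPM in other FBs (fitted log2 difference 2.45, SE 0.51). Gsn, the actin-severing gelsolin, was at 7910 CPM in Pi16 FBs of the young male and 15141, 9626, 17646 and 12695 CPM in those of the old. In other FBs it was at 2951 and then 13683, 11563, 19950 and 15154 CPM (-1.89, SE 0.32). Lum and Opcml belong to the rule.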

How the data were processed

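The authors trimmed the 10x 3' v3.1 reads with Cutadapt and counted UMIs with STARsolo on GRCm38.p6. The deposited values are raw UMI counts per gene and barcode, with no normalization. Genes are named by file symbols, without coordinates. Sets of cells follow the rule in the report. The members and the 20 gene lists were chosen with earlier results of these data known.

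Counts were summed over Pi16 FBs per library with at least 10 cells and compared with edgeR 4.0.16 (TMM scaling, quasi-likelihood F test with robust dispersions, p-values adjusted by Benjamini and Hochberg over all tested genes) in R 4.3.3, without covariates, in place of the study's mixed model over cells. Genes were tested where more than 5% of cells had a count in at least 3 libraries. The interaction of cell group with age had library as a block. For shares, a two-sided exact permutation test was run in scipy 1.17.1. Replicates are libraries of separate mice, and intervals cover counting error only. Total UMIs per library ran from 6355125 to 50436562. UMIs summed over Pi16 FBs were fewest in the young female (14941), so values of that library are the least precise. The old library of 24 months (70535) held fewer than the young male (87483). Genes at 0 in a group were bounded against 3 counts. Both models were tested on simulated data.

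Named genes are the 10 with the smallest p in each direction whose libraries do not overlap and which have at least 10 counts, the 4 most abundant of each list, the 15 with the largest median ratio to other FBs in each direction, the 15 most variable, those the study's text names for FBs, and all genes called, apart from a few that are not reported here. CPM values are sums per library scaled to its total UMIs over the same cells. Further genes, such as Atp5l, Fosb, Nr4a1, Dusp1, Jun, Junb, Jund, Klf2, Thy1 and those described under the progenitor list, were named after their values were seen.

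Doublets were kept, and were removed as an alternative with the scrublet of scanpy 1.11.5 at its automatic threshold, replaced by an expected rate of 0.8% per 1000 barcodes for libraries in which it marked under 0.5%. Other alternatives were DESeq2 1.42.0, no TMM, other filters on genes and cells, thinning to 500 UMIs, a B sum (UMIs of the 7 genes of other cell types) of 0, a margin of 2 UMIs, a minimum of 5 cells, sex or shared barcodes as a covariate, and leaving out each library. Leaving Mmp3 out of the rule, leaving out cells with mesothelial UMIs and counting only unequal sums were chosen after seeing the data. Figures were drawn with matplotlib 3.10.9 in Python 3.11.15, with numpy 2.4.6 and pandas 2.3.3.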

Additional observations from a re-analysis of the deposited data

Results flagged for a closer look

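In the 4 old libraries, 2 of 55 sets of values held a library far from the others. Pdlim4 was at 74.2 CPM in Pi16 FBs of the 20-month library, where the nearest old value was 97.6 CPM. Fbxo33 was at 142 CPM in those of the 24-month library, where the nearest old value was 43.9 CPM. Chance marks about 1 in 20 such sets.

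edgeR's interaction term between age and group of FBs called 15 genes, with the young male as the only young library, so that age and that library cannot be told apart. It called 0 genes without the male of 27 months or the female of 28 months. As fitted log2 differences, Aifm1 (5.84) and Cd55 (2.45) were higher. The remaining 13 were lower. Those given here were Gsn (-1.89), Gm10801 (-2.54), Lum (-2.54), Tmem176b (-2.64), Ambra1 (-2.81), Tmem176a (-3.17), Ebf1 (-3.40), Col14a1 (-4.17), Opcml (-11.31), Cul4b (-11.52), Ly6c1 (-11.58) and Ccn2 (-11.97). Fits near -11 come from genes with no count in the other FBs of the young male and are no measure of size. Aifm1, an enzyme of mitochondria, rests on 23 counts in those 18 cells, at 730 CPM against 0 to 24.4 CPM in other FBs of the old libraries.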

How the results depend on the processing

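The share of FBs was lower and the share of all cells higher in old by the means under each planned and added alternative, but against the 24-month library alone the share of all cells turned, at -0.15 percentage points. Leaving out single libraries moved the difference in the share of FBs between -38.1 (without the young male) and -10.1 (without the young female) percentage points and that in the share of all cells between 2.89 and 4.74. Under the other alternatives the first ran from -36.8 to -18.4. The second ran from 0.996 after thinning and 2.24 at a B sum of 0 to 4.56 at 1000 UMIs and 500 genes, where it was 3.52 in the report.

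Genes called between ages numbered 0 in the report. They numbered 5 without TMM, 1 with filterByExpr, 39 without a gene filter, 1 at 1000 UMIs and 500 genes, 1 at a B sum of 0, 14 with sex as a covariate (sex from the labels and the study's text, so that the 20-month library counted as male), and from 0 to 2 without single libraries. The last included 1 gene without the female of 28 months. At 1000 UMIs and 500 genes and at a B sum of 0, as without the young female, the young male was the only young library. List genes called numbered 2 without TMM, 2 without a gene filter and 4 with sex as a covariate. With an unadjusted p under 0.05, genes over 2-fold higher in old numbered 113 with DESeq2 (109 lower), 187 with filterByExpr, 793 without a gene filter, 61 after thinning, 244 at a B sum of 0, 188 with the shared-barcode covariate (179 lower), and from 123 to 456 without single libraries (123 without the male of 27 months, 128 without the female of 28 months). Genes lower numbered 914 without a gene filter, 45 after thinning, 89 without cells carrying mesothelial UMIs, and from 42 to 195 without single libraries (42 without the young male). Genes called by the interaction numbered 8 without TMM, 9 with filterByExpr, 32 without a gene filter, 7 after thinning and from 0 to 50 without single old libraries. A margin of 2 UMIs, leaving out mesothelial cells or leaving out the young male left no young library to fit. After thinning, only 637 genes had enough counts in 4 libraries, of which 7 were over 2-fold higher and 2 lower in Pi16 FBs than in other FBs in every library. Lower genes numbered 46 of 9405 at a margin of 2 UMIs and 22 of 8032 at a B sum of 0, in 4 libraries each.

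Of the 20 genes named for age, which were chosen for a small p and libraries that did not overlap, Nkain2, Rp9, Krt19, Ap4e1, Sox6 and Cebpb passed the threshold in at least 1. Depth limits the age comparison, since young Pi16 FBs gave 87483 and 14941 UMIs and 359 tested genes had no young count. Shared barcodes and age cannot be told apart but for the 24-month library. No paired analysis was possible because the labels carry no replicate numbers that link young and old mice.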
